A study of Mus musculus with 9 samples.

Results

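Sterol efflux and lipid uptake were followed here through 8 genes: the liver X receptor (LXR) genes Nr1h2 and Nr1h3, the sterol transporter genes Abca1 and Abcg1, the ubiquitin ligase gene Mylip, the lipoprotein receptor gene Scarb1, the lipase gene Lpl and the lipid droplet gene Plin2. The 8 were chosen by function and symbol out of 35275 genes in the count table, at a time when genotype results of these data were already known, so their calls describe where they stand and are not independent evidence. All 8 had enough counts to be tested. RNA had been sequenced in bulk from the dissected anterior segment of the mouse eye (cornea, iris, ciliary body and drainage structures, without the lens) at postnatal day 0. There were 3 Col4a1+/+ (wildtype) libraries and 6 Col4a1+/G1344D (mutant) libraries, the latter heterozygous for a missense allele of the gene for a type IV collagen chain. Each library pooled 4 eyes from 2 mice, so a p-value measures the spread between pools, and no treatment was named in the labels for either group.

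LXRs are nuclear receptors that sense oxidised cholesterol and, paired with a retinoid X receptor (RXR), switch on genes that move sterol out of the cell. Abca1 and Abcg1 encode membrane pumps that pass cholesterol to lipoproteins, and Mylip encodes a ubiquitin ligase that is itself switched on by LXR. Uptake runs the other way: Lpl releases fatty acids from circulating triglyceride at the vessel wall, Scarb1 takes up cholesterol ester from high-density lipoprotein, and Plin2 coats the droplets in which cells store the lipid.

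The promoters of 2 of the genes that were higher in the mutant are shown as a description, and an action of LXR on them was not tested. RefSeq promoter entries (GRCm38.p6) were held for 5 of the 8 genes, and there was none for Abcg1, Scarb1 or Lpl. The 200 bases upstream of the start of Abca1 lie at chr4:53159896-53160095 on the minus strand, and those of Mylip at chr13:45389542-45389741 on the plus strand. Both are written 5′ to 3′ along the gene, with capitals on a direct repeat of the kind LXR binds, where there was one, and on the TATA box.
Abca1: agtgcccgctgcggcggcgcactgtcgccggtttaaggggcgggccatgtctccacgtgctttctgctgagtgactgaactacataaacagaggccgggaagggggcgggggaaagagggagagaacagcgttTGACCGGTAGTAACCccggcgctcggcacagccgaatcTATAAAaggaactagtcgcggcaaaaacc
Mylip: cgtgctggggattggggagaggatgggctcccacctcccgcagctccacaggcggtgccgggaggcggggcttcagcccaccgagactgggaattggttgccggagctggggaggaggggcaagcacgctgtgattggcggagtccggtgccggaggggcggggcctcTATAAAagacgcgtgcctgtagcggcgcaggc
The longer capital run of Abca1, 67 to 53 bases before the start, matched the core of the repeat, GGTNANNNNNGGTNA, on the opposite strand. The search covered both strands from 250 bases before to 50 bases after each start, a wider stretch than the one shown, and these letters were opened up after the Abca1 promoter had been read, so the match was fixed by that choice. Of 32817 promoters searched over the same 300 bases, 0.719% held the core, and 0.0152% held the full repeat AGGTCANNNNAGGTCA, which contains it and which none of the 5 genes matched. The single element of that repeat, AGGTCA, was found in 16.3% of promoters, and among the 5 genes in Plin2, at positions -218 to -213 from the start and so outside the stretch length shown for the other genes. The TATA box, TATAAA on either strand, was found in 13.6% of promoters and lay 29 bases before the start in Abca1 and 32 bases before it in Mylip. Such a match is a description of letters, not a measured binding site.

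The libraries held between 25995340 and 35306935 counts. Lens markers, 8 genes of a tissue that had been removed, summed to between 2.85 and 4.14 CPM (counts scaled to a common library size) over all 9 libraries, while 8 markers of anterior segment epithelium and keratocytes summed to between 7968 and 9572 CPM in wildtype and between 6654 and 7753 CPM in mutant. Gm42418, a gene model that overlaps ribosomal RNA sequence, took over 1% of the counts in 1 wildtype library (wildtype 1) and in 5 mutant libraries (all except mutant 2), and under it in the others. Expression also followed exon length to a different degree in different libraries, so the trend was removed in one of the alternatives. Mutant libraries moved as a group on many genes: 19.2% of 15825 tested genes were called in either direction (edgeR quasi-likelihood test, Benjamini-Hochberg adjusted p under 0.05), 9.7% higher and 9.47% lower. The groups did not overlap for 22% of genes, 10.8% with the mutant higher and 11.2% with it lower.

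Against that background 3 of the 8 genes were called higher in the mutant, Abca1, Abcg1 and Mylip, and 0 were called lower (edgeR; 4 higher and 0 lower at an unadjusted p under 0.05; 4 and 0 by DESeq2; 5 and 0 by limma-voom). The groups did not overlap for these 3 genes. The median log2 fold change of the 8 was 0.18, beside 0.00 over all tested genes. Since the 8 were chosen with such results known, nothing is read from this share.

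**Figure D1:**
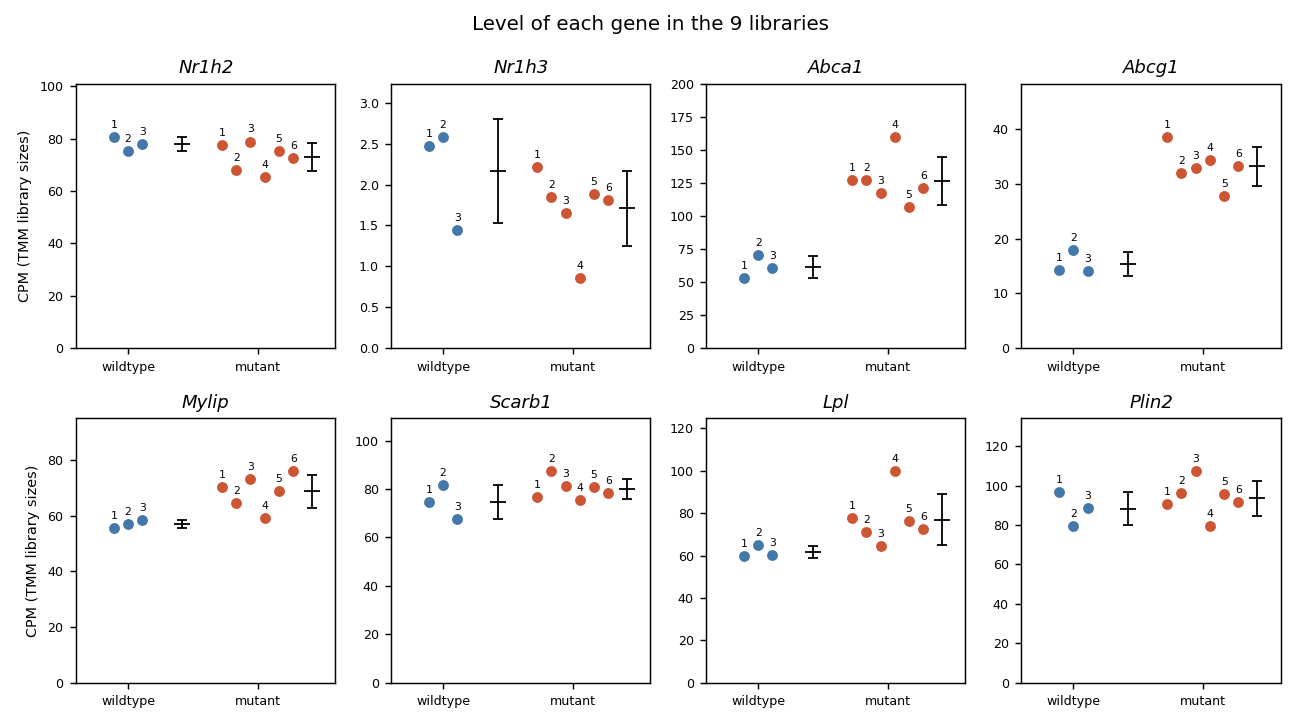
Level of each of the 8 genes in CPM (linear axes from 0) in the 3 wildtype (blue) and 6 mutant (orange) libraries, with replicate numbers; the black bar is the mean ± SD of the group. The lowest mutant value of Abca1 (106 CPM) and of Abcg1 (27.9 CPM) lies above the highest wildtype value (70.1 and 17.9 CPM), while the groups overlap for Nr1h2, Nr1h3, Scarb1, Lpl and Plin2.

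The sensors stand first in the pathway, and neither passed the test. Nr1h2, which encodes LXR beta (chromosome 7, 44549616 to 44553951 of GRCm38, minus strand), stood at 80.8, 75.2 and 77.8 CPM in wildtype 1 to 3. In mutants 1 to 6 it stood at 77.5, 68.2, 78.9, 65.3, 75.1 and 72.7 CPM. The groups overlapped, with 4 of 6 mutant libraries below all wildtype libraries. The log2 fold change was -0.09 (SE 0.08, edgeR adjusted p = 0.451), and the 95% interval of mutant over wildtype ran from 0.83 to 1.06.

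Nr1h3, which encodes LXR alpha (chromosome 2, 91184061 to 91202834, minus strand), was the scarcest of the 8. Its counts were 67, 69 and 40 in wildtype and 64, 60, 58, 24, 67 and 50 in mutant, or 2.47, 2.59 and 1.44 CPM against 2.22, 1.84, 1.65, 0.855, 1.89 and 1.81 CPM. The lowest value of either group was that of mutant 4, and the groups overlapped. The log2 fold change of -0.34 had an SE of 0.31 (edgeR adjusted p = 0.476), so a fold between 0.50 and 1.24 lay within its 95% interval and depth limits what can be said. It shares 34 exon bases with the transcript Gm13783 on the same strand.

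Nr1h2 and Nr1h3 were far apart in level. The log2 ratio of Nr1h3 to Nr1h2 counts was -5.20 ± 0.47 (SD, n = 3) in wildtype and -5.46 ± 0.41 (SD, n = 6) in mutant. The difference of -0.25 did not pass an exact two-sided permutation test over 84 splits (p = 0.440, adjusted over 3 ratios 0.857; the smallest p possible is 0.0119). Per kilobase of exon the wildtype levels were 23.2 ± 0.839 CPM for Nr1h2 and 0.861 ± 0.251 CPM for Nr1h3 (SD, n = 3).

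Abca1, whose pump loads cholesterol and phospholipid onto apolipoprotein A-I (chromosome 4, 53030787 to 53159895, minus strand), was about doubled. It stood at 53.2, 70.1 and 60.9 CPM in wildtype and at 127, 127, 117, 160, 106 and 121 CPM in mutants 1 to 6. Every mutant library lay above every wildtype library, and mutant 4 was the highest. The fitted difference was 1.04 on the log2 scale with an SE of 0.12, or 2.06-fold, with a 95% interval of 1.73-fold to 2.45-fold, and its adjusted p was 0.000122 (edgeR).

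Abcg1, whose pump passes cholesterol to high-density lipoprotein (chromosome 17, 31057675 to 31117988, plus strand), changed by much the same factor from a lower level. It stood at 14.3, 17.9 and 14.1 CPM in wildtype and at 38.7, 32.0, 33.0, 34.4, 27.9 and 33.3 CPM in mutants 1 to 6. The groups were again fully separate, here with mutant 1 the highest. The fitted difference was 1.11 on the log2 scale with an SE of 0.12, or 2.15-fold, with a 95% interval of 1.8-fold to 2.57-fold, and its adjusted p was 8.07e-05 (edgeR).

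The log2 ratio of Abca1 to Abcg1 counts was 1.99 ± 0.11 (SD, n = 3) in wildtype and 1.92 ± 0.17 (SD, n = 6) in mutant, a difference of -0.07 (exact two-sided permutation p = 0.571, adjusted over 3 ratios 0.857). A p of this size does not show that both changed alike, and the mutant ratios ran from 1.71 to 2.22 around the wildtype range of 1.90 to 2.11. Abca1 has 10363 bases of exon and Abcg1 7298, and the length trend differed between the groups by 0.20 and 0.13 on the log2 scale at those lengths. With the trend removed the log2 fold changes were 0.84 for Abca1 (edgeR adjusted p = 2.49e-05) and 0.98 for Abcg1 (edgeR adjusted p = 6.98e-05), and the groups still did not overlap for either gene. Within the libraries with over 1% of counts on Gm42418 (1 wildtype, 5 mutant) the fold was 2.37 for Abca1 and 2.34 for Abcg1, and within the others (2 wildtype, 1 mutant) it was 1.94 and 2.00.

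Mylip (chromosome 13, 45389742 to 45412022, plus strand) rose slightly. It stood at 55.7, 56.9 and 58.4 CPM in wildtype and at 70.4, 64.7, 73.3, 59.3, 68.9 and 76.0 CPM in mutant. The groups did not overlap, but mutant 4 lay close above the highest wildtype library. The difference was 0.27 on the log2 scale with an SE of 0.09, or 1.21-fold, with a 95% interval of 1.06-fold to 1.37-fold (edgeR adjusted p = 0.0432). The call was lost with the library split on Gm42418 as a covariate (edgeR adjusted p = 0.135) and when wildtype 1, 2 or 3 or mutant 1, 3, 5 or 6 was left out (leaving out 1 library at a time gave edgeR adjusted p-values between 0.0112 and 0.168). It was kept with the length trend removed (log2 0.32, edgeR adjusted p = 0.0150).

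On the uptake side, Scarb1 (chromosome 5, 125277087 to 125341094, minus strand) stood at 74.4, 81.8 and 67.8 CPM in wildtype and at 76.6, 87.3, 81.3, 75.5, 80.8 and 78.4 CPM in mutant. Only mutant 2 lay above all wildtype libraries. The log2 fold change of 0.10 (SE 0.08, edgeR adjusted p = 0.434) had a 95% interval from -0.08 to 0.27, and its direction turned with the length trend removed (log2 -0.06, edgeR adjusted p = 0.711).

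Lpl (chromosome 8, 68880491 to 68907448, plus strand) stood at 60.0, 64.9 and 60.4 CPM in wildtype and at 77.5, 71.3, 64.5, 99.7, 76.3 and 72.4 CPM in mutant. Mutant 3 fell within the wildtype range, the other 5 mutant libraries lay above it, and mutant 4 stood apart at the top. The log2 fold change of 0.32 (SE 0.11) narrowly missed the threshold (edgeR adjusted p = 0.0582) and passed it by DESeq2 (adjusted p = 0.0359). Lpl has the longest exon sequence of the 8, 10478 bases, and with the length trend removed its log2 fold change was 0.11 (edgeR adjusted p = 0.452). Gpihbp1, which encodes the endothelial protein that holds Lpl at the vessel wall, stood at 5.57 ± 1.06 CPM (SD, n = 3) in wildtype and 6.85 ± 0.905 CPM (SD, n = 6) in mutant (edgeR adjusted p = 0.248). The log2 ratio of Lpl to Gpihbp1 counts was 3.48 ± 0.33 (SD, n = 3) and 3.49 ± 0.30 (SD, n = 6), with an exact two-sided permutation p of 0.964 (adjusted over 3 ratios 0.964).

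Plin2 (chromosome 4, 86648386 to 86670060, minus strand) stood at 96.6, 79.7 and 88.5 CPM in wildtype and at 90.8, 96.0, 107, 79.5, 95.7 and 91.8 CPM in mutant. The groups overlapped at both ends. The log2 fold change was 0.08 (SE 0.09, edgeR adjusted p = 0.568), and its 95% interval ran from -0.11 to 0.28.

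**Figure D2:**
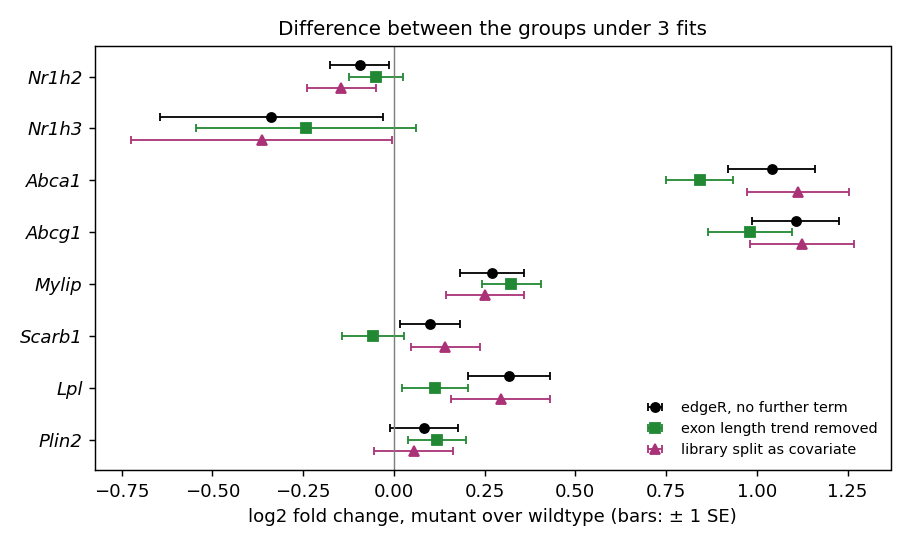
Log2 fold change of mutant over wildtype (horizontal axis, bars ± 1 SE) for the 8 genes in the edgeR fit, with the exon length trend removed, and with the Gm42418 split of libraries as a covariate. Abca1 runs from 0.84 to 1.11 and Abcg1 from 0.98 to 1.12 over the 3 fits, Lpl from 0.11 to 0.32, and Scarb1 lies on either side of 0.

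Mutant 4 took an end place among the 6 mutant libraries for 7 of the 8 genes: it was the highest for Abca1 and Lpl and the lowest for Nr1h2, Nr1h3, Mylip, Scarb1 and Plin2. Its length trend was 0.23 (log2) above the mean of all libraries at the exon lengths of both Abca1 and Lpl, and 0.17 above it at that of Scarb1, and it ran from -0.16 to -0.07 relative to that mean at those of Nr1h2, Nr1h3, Mylip and Plin2. Without mutant 4 the log2 fold change was 0.97 for Abca1 (edgeR adjusted p = 1.57e-05) and 0.23 for Lpl (edgeR adjusted p = 0.0532). With the trend removed, Abca1 ran from 61.4 to 73.9 CPM in wildtype and from 104 to 137 CPM in mutant.

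Levels can be set side by side between genes per kilobase of exon. In wildtype the order was Plin2 at 25.1 CPM per kilobase, Nr1h2 at 23.2, Mylip at 17.6, Scarb1 at 8.79, Abca1 at 5.93, Lpl at 5.89, Abcg1 at 2.11 and Nr1h3 at 0.861. Plin2 and Nr1h2 overlapped over the libraries, as did Abca1 and Lpl, and the other neighbours in this order did not. In mutant, Abca1 at 12.2 ± 1.75 CPM per kilobase came before Scarb1 at 9.41 ± 0.501 (SD, n = 6), although those ranges overlapped narrowly. Abcg1 remained next to last at 4.55 ± 0.481 CPM per kilobase and Nr1h3 last at 0.680 ± 0.182 (SD, n = 6).

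**Figure D3:**
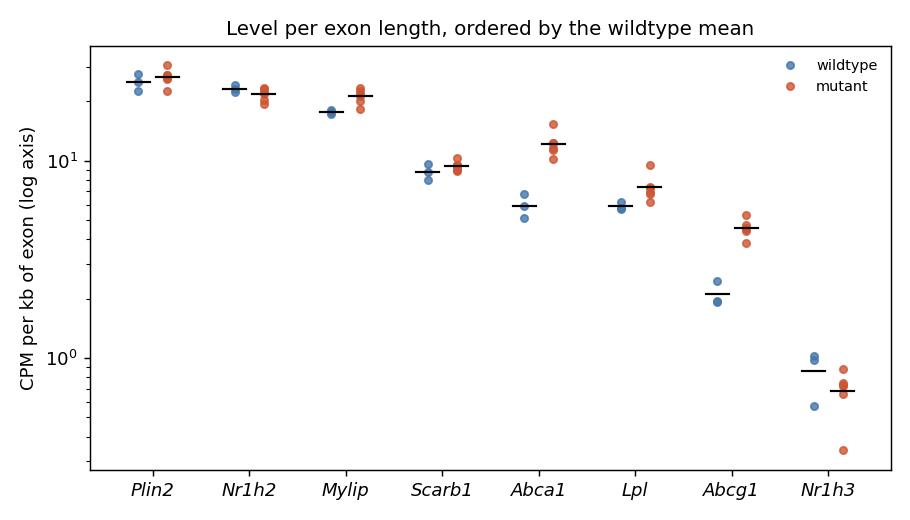
CPM per kilobase of exon (log axis) of the 8 genes, ordered by the wildtype mean; points are libraries and black lines group means. Abca1 stands beside Lpl in wildtype (5.93 and 5.89) and above Scarb1 in mutant (12.2 and 9.41), and Nr1h3 is the lowest in both groups.

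Genes with the most similar pattern over the 9 libraries were sought among 12674 others with a mean of at least 1 CPM, by Pearson's r of log2 CPM. Such an r holds the difference between genotypes as well as depth and the length trend, so the value within the 6 mutant libraries is given beside it as a description. For Abca1 the nearest was Abcc9, a potassium channel subunit gene of pericytes, with r of 0.996 over 9 libraries and 0.975 within mutants. Tjp1, which encodes a tight junction scaffold, followed with 0.987 and 0.911. For Abcg1 the nearest were Elmo1, an engulfment and cell motility gene, with 0.984 and 0.850, and Ddah1, an enzyme gene of methylarginine breakdown, with 0.984 and 0.847. Abca1 and Abcg1 themselves had an r of 0.965 over 9 libraries and 0.538 within the 6 mutants.

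The nearest patterns of the other 6 genes lay elsewhere. Lpl was nearest to Agfg1 (0.987 and 0.983) and Zcchc2 (0.986 and 0.986), and Mylip to Zfp518a (0.972 and 0.944) and Ccnt1 (0.955 and 0.909). Plin2 was nearest to Nadk, an NAD kinase gene (0.959 and 0.960), and Zscan2 (0.920 and 0.929). Scarb1 was nearest to Mfng (0.915 and 0.797) and Epor (0.913 and 0.805), Nr1h2 to Aqp8 (0.935 and 0.963) and Ccnl2 (0.929 and 0.960), and Nr1h3 to Tle6 (0.962 and 0.947) and Hscb (0.954 and 0.987). No nearest gene of any of the 8 was another of the 8.

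The partners and other targets of LXR showed no common direction. Of 16 genes, all tested, 2 were higher and 2 lower (edgeR), or 25% beside 19.2% over all genes. At an unadjusted p under 0.05 (edgeR), 3 were higher and 4 lower. The median log2 fold change was 0.00, the same as over all tested genes. Rxra, which encodes an RXR, was higher in the mutant, with 164 ± 6.42 CPM (SD, n = 6) beside 137 ± 7.04 CPM in wildtype (SD, n = 3; edgeR adjusted p = 0.0169). Fasn, the fatty acid synthase gene, rose 1.34-fold from 125 ± 18.6 to 168 ± 22.1 CPM (edgeR adjusted p = 0.0158). Abcg5, which encodes one side of a sterol pump, fell from 32.0 ± 3.67 to 24.6 ± 2.06 CPM (edgeR adjusted p = 0.0185), opposite in direction to Abca1 and Abcg1. Smpdl3a, a phosphodiesterase gene, fell from 99.6 ± 14.7 to 78.5 ± 7.17 CPM (edgeR adjusted p = 0.0243). All 4 lost their calls without wildtype 1, Fasn also without wildtype 3 and Abcg5 without wildtype 2, and with the length trend removed Fasn, Abcg5 and Smpdl3a were not called (edgeR adjusted p = 0.0965, 0.0828 and 0.116). Apoe, the apolipoprotein gene, stood at 1283 ± 55.1 and 1267 ± 267 CPM, and Srebf1, the lipid synthesis regulator, at 82.9 ± 6.17 and 89.7 CPM on average, and neither was called (edgeR adjusted p = 0.947 and 0.467); both are named after their values were seen.

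Of 29 genes for the movement of sterol and lipoprotein within and between cells, 26 were tested, and 6 were higher and 0 lower (edgeR; 10 and 1 at an unadjusted p under 0.05; 8 and 0 by DESeq2; 8 and 1 by limma-voom), with a median log2 fold change of 0.07. Called genes made up 23.1% of those tested, all of them higher, beside 9.7% higher and 9.47% lower over all genes (19.2% in either direction). The difference in share was not tested. With the length trend removed 2 were higher and 1, Npc2, lower (edgeR adjusted p = 0.0470). Lrp1, an endocytic receptor gene, rose 1.70-fold from 250 ± 33.0 to 426 ± 89.0 CPM (edgeR adjusted p = 0.0035), and its log2 fold change went from 0.77 to 0.49 with the length trend removed. Nceh1, which encodes a hydrolase of cholesterol esters, rose 1.47-fold from 19.9 ± 1.32 to 29.3 ± 3.04 CPM (edgeR adjusted p = 0.00431). Soat1, whose enzyme makes cholesterol esters, rose 1.30-fold from 67.6 ± 5.70 to 88.1 ± 6.11 CPM (edgeR adjusted p = 0.0075). Npc1, the exporter gene for lysosomal cholesterol, rose 1.42-fold from 36.2 ± 6.23 to 51.5 ± 6.18 CPM (edgeR adjusted p = 0.0099). The other called genes, named after their values were seen, were the receptor genes Lrp8 and Sort1, with log2 fold changes of 0.60 and 0.26. Only Lrp1 and Nceh1 remained called both without wildtype 1 and with the length trend removed; Soat1, Npc1, Lrp8 and Sort1 lost their calls in both, and Lrp8 also without wildtype 3.

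Genes of lipolysis and fatty acid uptake held the largest single change among the 4 lists. Of 26 genes 23 were tested, 3 were higher and 2 lower, or 21.7% beside 19.2% over all genes, and the median log2 fold change was 0.13. Cd36, a scavenger receptor and fatty acid carrier gene, ran from 4.54 to 6.36 CPM in wildtype and from 31.5 to 36.7 CPM in mutant with a median of 34.4 CPM. The mutant libraries lay close together and far above the wildtype libraries, 5.98-fold (log2 2.58 with an SE of 0.13, edgeR adjusted p = 9.20e-09). Msr1, another scavenger receptor gene, rose 1.66-fold from 6.77 ± 0.668 to 11.3 ± 2.39 CPM (edgeR adjusted p = 0.0125), a call that did not survive leaving out wildtype 1 or wildtype 3. Sel1l, whose product helps Lpl leave the endoplasmic reticulum, rose 1.29-fold (edgeR adjusted p = 0.0161), but was not called without wildtype 1 or 3 or with the length trend removed (adjusted p = 0.0737). Slc27a3, a fatty acid transport protein gene, fell from 23.6 ± 1.40 to 14.4 ± 1.74 CPM, a log2 change of -0.72 (edgeR adjusted p = 0.0021). Lmf1, whose product folds Lpl, was also lower, at 26.7 ± 1.85 and 21.4 ± 1.12 CPM (edgeR adjusted p = 0.0303). Lmf1 is named with its values known, and leaving out wildtype 1, 2 or 3 or mutant 5 ended its call, while with the length trend removed its log2 fold change went from -0.32 to -0.55.

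Of 20 lipid droplet genes beside Plin2, 14 were tested, and 0 were higher and 1 lower (edgeR; 2 and 3 at an unadjusted p under 0.05; 0 and 1 by DESeq2; 2 and 3 by limma-voom), and the median log2 fold change was 0.02. Called genes made up 7.14% of those tested, beside 19.2% over all genes, and the difference was not tested. Abhd5, which encodes an activator of triglyceride lipase, fell from 57.3 ± 3.82 to 47.5 ± 3.84 CPM (edgeR adjusted p = 0.0452). Leaving out any 1 wildtype library, or mutant 2, 3, 4 or 5, ended its call. The call of Abhd5 was also lost with the Gm42418 split as a covariate and under further settings given in the closing section. It was kept with the length trend removed (log2 -0.35, edgeR adjusted p = 0.0129) and by DESeq2 (adjusted p = 0.0333). Hilpda and G0s2, both inhibitors of that lipase, stood at 10.6 ± 1.18 and 7.58 ± 1.61 CPM and at 7.28 ± 0.811 and 5.45 ± 0.744 CPM (edgeR adjusted p = 0.0791 and 0.0875). Lpin1, a phosphatase gene of triglyceride synthesis, stood at 12.8 ± 3.47 and 16.6 ± 1.66 CPM (edgeR adjusted p = 0.0963).

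**Figure D4:**
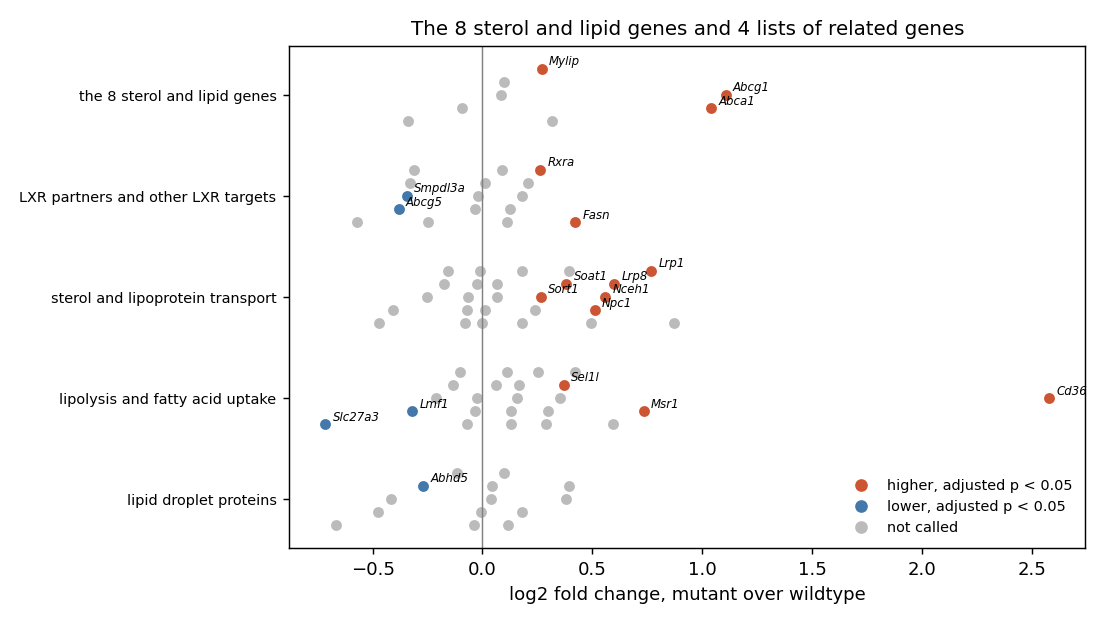
Log2 fold change of mutant over wildtype (horizontal axis) for the 8 genes and the tested genes of 4 related lists; orange points were called higher, blue lower and grey not called, and called genes are named. Cd36 stands apart at 2.58, Abca1 and Abcg1 at 1.04 and 1.11, and Slc27a3 is the lowest called gene at -0.72.

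Several of these genes are expressed in macrophages, and in bulk tissue more cells of a type cannot be told apart from more RNA per cell. Of 21 macrophage markers 8 were higher and 0 lower (edgeR; 14 and 0 at an unadjusted p under 0.05), beside 9.7% and 9.47% over all genes, and 14 were higher with the length trend removed and 15 by limma-voom. They included Lyz2 (4.59-fold), Cd68 (2.50-fold), Itgam (2.30-fold) and Ctss (1.93-fold), whose calls held with any 1 library left out, while Csf1r stood at 43.6 ± 6.28 and 48.2 CPM on average and was not called (edgeR adjusted p = 0.397). As a list, their summed level ran from 426 to 444 CPM in wildtype and from 582 to 789 CPM in mutant. Of 10 markers of phagocytes with a load of lipid or haem, 7 were higher and 1, Vcam1, lower (log2 -0.33, not called without wildtype 1 or 2). The haem oxygenase gene Hmox1 rose 7.91-fold and the receptor gene Trem2 3.23-fold, and Marco and Spic had 2 counts each over the 3 wildtype libraries and 835 and 212 over the 6 mutant libraries. The list's sum ran from 2221 to 2340 CPM in wildtype and from 2777 to 3116 CPM in mutant, and most of it was Gpnmb, at 1604 CPM in wildtype, which was not called (log2 0.02, edgeR adjusted p = 0.916). Of 12 blood vessel endothelium markers 8 were higher and 0 lower (edgeR; 9 and 0 at an unadjusted p under 0.05), but without wildtype 1 the cadherin gene Cdh5 alone of these 8 was called. Their sums ran from 633 to 736 CPM in wildtype and from 862 to 955 CPM in mutant. Red cell markers, 8 genes, summed to between 536 and 941 CPM in wildtype and between 1798 and 8787 CPM in mutant, with 4 called higher and 1, Klf1, lower; 7 were called higher by DESeq2, and 1 or 2 (edgeR) with 1 wildtype library left out. Marker genes named in this paragraph were picked after their values were seen, and the marker counts under other settings were added then. None of these 4 lists had a marker at 0 in all libraries. The part of macrophages, vessels and blood in the levels of Abca1, Abcg1 and Cd36 was not tested. Fat cells are a main source of Lpl and of droplet proteins elsewhere. Here 8 adipocyte markers summed to at most 0.862 CPM in any library, and Adipoq, Lep and Retn were at 0 in all 9. None of the 8 had enough counts to be tested, and the cell source of Lpl and Plin2 RNA was not tested. Skeletal muscle markers summed to between 4.13 and 12.1 CPM over the 9 libraries, and 0 of 8 were called (edgeR; 0 at an unadjusted p under 0.05).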

How the data were processed

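Per the labels' protocols, 4 eyes from 2 mice were pooled per sample. The authors deposited raw read counts per Ensembl gene; STAR 2.6.1, HTSeq 0.6.1, DESeq2 1.6.3 and GRCm38 are named, per the submitters' processing notes, with no roles. For annotation release and strand setting: not given in the sources used here. Symbols and exon lengths came from GENCODE M21 (34490 of 35275 identifiers). Promoters came from RefSeq. The 8 genes and all lists were chosen with earlier results of these data known.

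Differences were tested with edgeR 4.0.16 under R 4.3.3: TMM, default filter, robust quasi-likelihood fit on genotype, Benjamini-Hochberg adjustment over 15825 genes. CPM uses TMM library sizes; log2 CPM has a prior count of 2, count ratios 0.5. Intervals are 95%, from the fit's SE and degrees of freedom. The named genes are the 8, up to 4 genes per list with the lowest p, and 2 nearest patterns per gene. Alternatives were RLE factors, DESeq2 1.42.0, limma-voom (limma 3.58.1), 2 filters, a replicate block, a length trend (mgcv 1.9.3) removed, the Gm42418 split and leaving out libraries. On simulated mutant and wildtype counts of 15591 genes, edgeR recovered 44.4% of genes changed by 1.5-fold, 79.6% of those changed by 2-fold, and 6.15% of its calls were false. Only 200 genes were changed there, with no length trend and no Gm42418 split. These rates are therefore not error rates of the calls in the real libraries. Libraries within a group differed beyond sampling noise. Of 9 red cell markers 8 were in the table. Of 7 pigment markers 6 were tested and 0 called (edgeR, also 0 at an unadjusted p under 0.05). The sum of the 7 was lower in every mutant library, at 13718 to 15409 CPM beside 15479 to 16173 CPM in wildtype. That sum rested mainly on Pmel and Dct, and 1 of the 6 tested, Tyrp1, went the other way. Tyrp1 stood at 1601 to 1871 CPM in mutant beside 1493 to 1551 CPM in wildtype, and Rpe65 was at 0 in all libraries. Of 8 lens markers 4 were tested and 0 called (edgeR, with 1 higher and 1 lower unadjusted). Of 8 tissue markers 1 was higher and 2 (Kera and Lum) lower. One gene of the lists is not reported here.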

Additional observations from a re-analysis of the deposited data

Results flagged for a closer look

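Lpl stood at 99.7 CPM in mutant 4, and the gap to the next mutant library, at 77.5 CPM, was 0.631 of the range of the 6 mutant libraries, above Dixon's 95% critical value for 6 values. Chance passes that value in about 1 in 20 groups, and 8 genes and 3 ratios were looked at.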

How the results depend on the processing

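Abca1 and Abcg1 were called higher under every alternative run, with log2 fold changes from 0.84 to 1.15 and from 0.98 to 1.23. The other genes were less firm. By limma-voom 5 of the 8 genes were called higher, with log2 fold changes of 0.0098 for Nr1h3 (direction turned), 0.19 for Scarb1 (now called) and 0.25 for Lpl (now called), and Lpl was also called by DESeq2 (0.32) and without a filter on low counts (0.33). With the exon length trend removed Scarb1 turned to -0.058 and the log2 ratio of Lpl to Gpihbp1 to -0.30. Mylip lost its call with the Gm42418 split as a covariate (0.25). When single libraries were left out, Mylip ran from 0.24 to 0.31, Lpl from 0.23 to 0.36 (called without mutant 3), and the ratio of Lpl to Gpihbp1 from -0.15 to 0.17. The cause of these shifts was not tested.

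Replicate numbers occur in both groups. Deviations from the group mean had r of 0.09, 0.03 and -0.10 between same-numbered libraries, and not every library correlated best with its own number. Wildtype 3 had r of -0.14, -0.08 and -0.10 with mutants 1 to 3 and of 0.06, 0.19 and 0.15 with mutants 4 to 6. For wildtype 1 and 2, r lay between -0.16 and 0.09. Deviations within a group depend on each other, so these values cannot show whether libraries shared a batch, which was not tested. With a replicate block, mutants 4, 5 and 6 had no wildtype library of the same number. They added nothing to the genotype difference, which came from replicates 1 to 3 of each group. In this fit Mylip was not called (log2 0.28, edgeR adjusted p = 0.0688). Called lower (edgeR) were 0 LXR partners and targets, 1 gene of lipolysis and fatty acid uptake and 0 lipid droplet genes. There were 5 endothelium markers called higher in place of 8. Over all genes 814 were higher and 671 lower, beside 1535 and 1499 without the block.

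For LXR partners and targets, 1 gene was lower with the length trend removed and 1 with the Gm42418 split, and single libraries left out gave 0 to 2 higher and 0 to 3 lower. For sterol and lipoprotein transport, 2 were higher and 1 lower with the length trend removed, 1 was lower by limma-voom, and libraries left out gave 2 to 8 higher. For lipolysis and fatty acid uptake, 5 were higher by limma-voom, 1 was lower without a filter and 1 with the split, and libraries left out gave 1 to 5 higher and 1 to 2 lower. For lipid droplet genes, 2 were higher and 3 lower by limma-voom, 0 were lower with RLE size factors, without a filter and with the split (edgeR), and libraries left out gave 0 to 1 in each direction. Over all genes, limma-voom called 2359 higher and 2335 lower, the length correction 913 higher, the split 938 and 939, leaving out wildtype 1 303 and 235, and leaving out wildtype 3 849 and 820. With 24 to 69 counts per library, Nr1h3 was limited by depth.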
